A study of Mus musculus with 120 samples.

Results

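The liver takes up glucose, phosphorylates it, and sends it down glycolysis, into glycogen or back to the blood. The genes described here are 30 enzymes, transporters and regulators of these routes. They cover glucose uptake and phosphorylation, glycolysis, pyruvate use, gluconeogenesis, glycogen synthesis and breakdown, and the first step of fructose use. Their members were chosen by gene symbol. Of the 30 genes, 26 were represented by 48 probe sets that name no other gene, in a table of 45037 probe sets, and 44 of these probe sets, from all 26 genes, were bright enough to be tested. Gpi1, Gapdh, Eno1 and Pfkfb1 were not analysed here. The 4 probe sets left out as dim belonged to Hk1, Pfkp (2 of them) and Pfkfb3, each of which kept another probe set.

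Livers came from 10-week-old male mice after 4 h without food, on 120 oligonucleotide expression arrays. The panel held 30 strains. MSM descends from wild mice caught in Japan, and 28 consomic strains carry 1 chromosome of MSM on the background of C57BL/6J (B6), the control strain. The whole chromosome came from MSM in B6-Chr1MSM, B6-Chr3MSM, B6-Chr4MSM, B6-Chr5MSM, B6-Chr7MSM, B6-Chr8MSM, B6-Chr9MSM, B6-Chr11MSM, B6-Chr14MSM, B6-Chr15MSM, B6-Chr16MSM, B6-Chr17MSM, B6-Chr18MSM, B6-Chr19MSM and B6-ChrYMSM, its centromeric (C) or telomeric (T) part in B6-Chr2CMSM, B6-Chr2TMSM, B6-Chr6CMSM, B6-Chr6TMSM, B6-Chr7CMSM, B6-Chr7TMSM, B6-Chr12CMSM, B6-Chr12TMSM, B6-Chr13CMSM, B6-Chr13TMSM, B6-ChrXCMSM and B6-ChrXTMSM, and the mitochondrial DNA in B6-mtMSM. From here on Chr6C, for example, stands for the strain B6-Chr6CMSM and mt for B6-mtMSM, while a chromosome is written out in full. No strain analysed here has chromosome 10 alone from MSM. Every strain was represented by 2 males, each measured on 2 arrays, and this number limits the precision. Hepatocyte markers were bright: their 19 tested probe sets had mean levels of at least 9.33 on the deposited log2 scale.

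Most enzymes of glycolysis also run backwards in gluconeogenesis, and the direction of flow is set at a few steps that have separate enzymes for each way. Liver glucokinase is held in the nucleus by its regulatory protein Gckr, phosphofructokinase and fructose-bisphosphatase oppose each other, and liver pyruvate kinase is controlled by feeding at the level of its transcript. Glycogen is built from UDP-glucose, which Ugp2 makes, by glycogen synthase and the branching enzyme, and is taken apart by glycogen phosphorylase.

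Values are deviations of a male from the median of the 60 males for the same probe set, in units of 0.001 on the deposited log2 scale. Deviations in the deposited table are compressed, to a different degree in each probe set: repeat arrays of a male differed by a median SD of 0.0592 units over the probe sets tested (10th percentile 0.0133, 90th percentile 0.701). A difference is therefore not a fold change, and its size was compared only within a probe set, either as a percentage of the difference of MSM or in residual SDs. Each gene is described through its brightest probe set, and others are named where they differ in call or sign. In bulk liver, fewer cells of a type and less RNA per cell cannot be told apart.

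Over the 30 strains, the genes of these routes varied at many strengths, and 4 of 26 passed the limma F test for any difference between strains (adjusted p below 0.05). These were Pfkl, the main phosphofructokinase of liver, Tpi1, triose phosphate isomerase, Ugp2, and Pygl, liver glycogen phosphorylase. They held 10 of the 44 probe sets tested, or 22.7%, against 15.5% of all 22551 probe sets. Over the 48 probe sets, tested or not, between-strain differences made up from 42.0% to 90.5% of the variance between males, with a median of 59.6%. The highest share was that of Pfkl. With 2 males per strain, this share also holds part of the spread between males and is large even where strains do not differ.

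**Figure D1:**
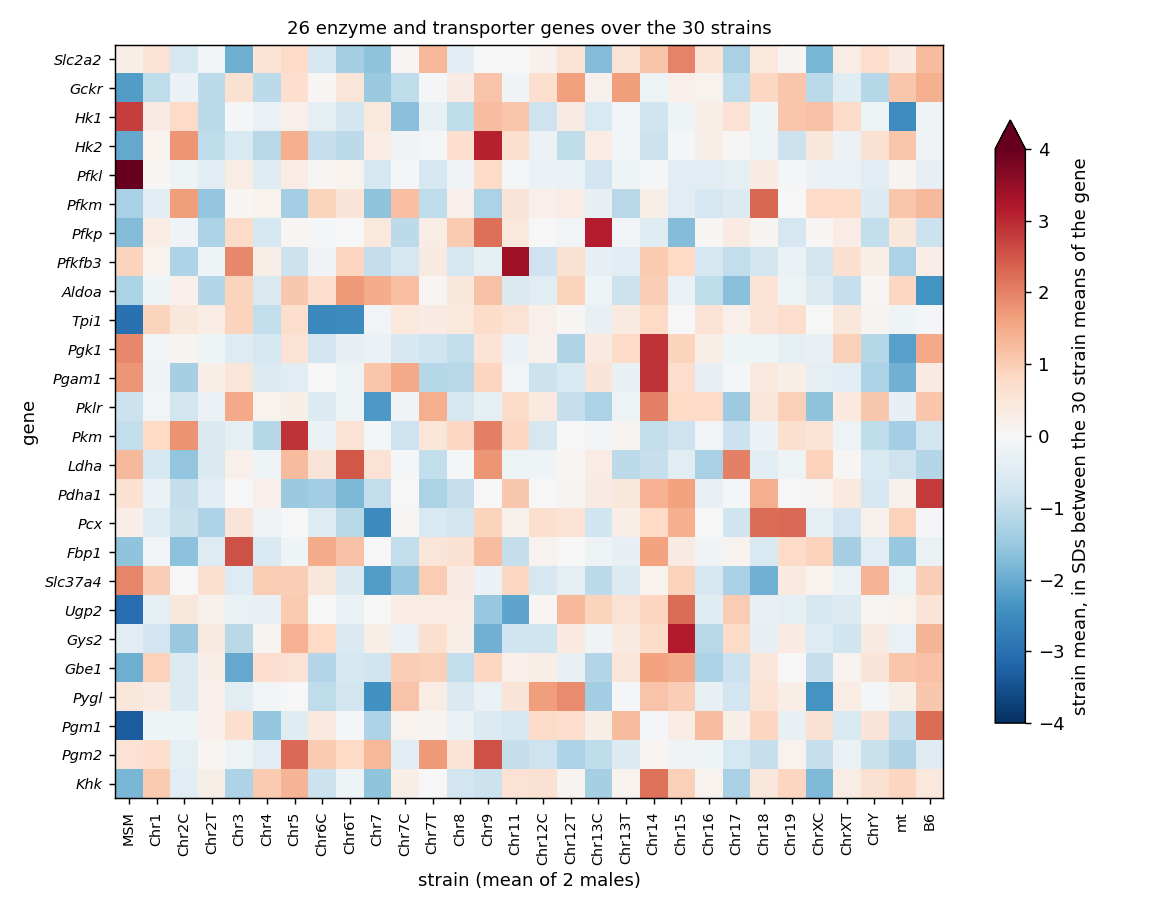
Strain means of the 26 genes (rows, through the brightest probe set, ordered by role) over the 30 strains (columns, MSM at the left and B6 at the right), as distance from the mean of the 30 strain means of that gene, in their SDs. The colour scale ends at 4, and Pfkl in MSM lies beyond it. MSM held the lowest mean of 7 genes and the highest of 3, Chr7 and mt the lowest of 5 each, and Chr14 the highest of 5.

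In uptake and phosphorylation, the strain means of Slc2a2, the glucose transporter GLUT2, ran from -4.03 units in Chr3 to 3.05 units in Chr15, with a median of -0.113. For Gckr they ran from -0.131 units in MSM to 0.0978 units in Chr13T, with a median of 0.00588. Hexokinase 1 (Hk1) ran from -0.0355 units in mt to 0.0373 units in MSM, with a median of -0.00245, and hexokinase 2 (Hk2), a form little used by hepatocytes, from -0.0493 units in MSM to 0.0879 units in Chr9, with a median of 0.00262.

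Among the enzymes of glycolysis, Pfkl ran from -1.42 units in Chr13C to 14.2 units in MSM, with a median of 0.151. Its muscle form Pfkm ran from -0.0308 units in Chr7 to 0.0434 units in Chr18, with a median of 0.00208, and the platelet form Pfkp from -0.0491 units in MSM to 0.107 units in Chr13C, with a median of 0.0078. Pfkfb3, which makes the activator fructose 2,6-bisphosphate, ran from -0.17 units in mt to 0.671 units in Chr11, with a median of 0.0203. The aldolase Aldoa had its highest mean in Chr6T, 1.19 units, and its lowest in B6, -1.75 units, with a median of -0.0774. Tpi1 ran from -1.46 units in MSM to 0.28 units in Chr3, with a median of 0.0192. Phosphoglycerate kinase (Pgk1) ran from -0.0501 units in mt to 0.0615 units in Chr14, with a median of -0.00624. The other probe sets of Pgk1 had other end strains, Chr6C and Chr14 at 1438640_x_at and Chr12T and B6 at 1439435_x_at. Phosphoglycerate mutase (Pgam1) ran from -0.0755 units in mt to 0.149 units in Chr14, with a median of 0.00881. Liver pyruvate kinase (Pklr) ran from -14.5 units in Chr7 to 14.4 units in Chr14, with a median of 0.0118, and its other 2 probe sets had the same lowest and highest strains. Pkm, the pyruvate kinase of other tissues, ran from -0.261 units in mt to 0.966 units in Chr5, with a median of 0.0828.

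At the pyruvate branch, Ldha (lactate dehydrogenase) ran from -0.0415 units in Chr2C to 0.0979 units in Chr6T, with a median of 0.00639. Pdha1, a subunit of pyruvate dehydrogenase, ran from -0.284 units in Chr6T to 0.453 units in B6, with a median of 0.00444. In gluconeogenesis, Pcx (pyruvate carboxylase) ran from -0.89 units in Chr7 to 0.779 units in Chr19, with a median of -0.00558, and Fbp1 (fructose-bisphosphatase) from -0.0152 units in Chr2C to 0.0251 units in Chr3, with a median of -0.000647. Slc37a4, the transporter that brings glucose 6-phosphate to its phosphatase, ran from -1.02 units in Chr7 to 0.711 units in MSM, with a median of -0.0675.

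For glycogen, Ugp2 ran from -1.71 units in MSM to 1.24 units in Chr15, with a median of 0.0353, and all 5 of its probe sets had MSM lowest and Chr15 highest. Gys2 (liver glycogen synthase) ran from -2.93 units in Chr9 to 5.09 units in Chr15, with a median of 0.0914. The branching enzyme Gbe1 ran from -1.48 units in Chr3 to 1 units in Chr14, with a median of 0.0696, and Pygl from -0.237 units in Chr7 to 0.158 units in Chr12T, with a median of -0.00515. Pgm1 and Pgm2 are phosphoglucomutases: Pgm1 ran from -0.422 units in MSM to 0.265 units in B6, with a median of 0.00331, and Pgm2 from -0.0706 units in Chr12T to 0.185 units in Chr9, with a median of -0.00231. Khk, ketohexokinase, which takes fructose into the pathway, ran from -1.37 units in MSM to 1.17 units in Chr14, with a median of -0.0911.

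The first comparison set MSM against B6, the question being in which of these genes the signal differs between the parent strains. For any gene in MSM, a changed transcript level and a sequence difference at the probes cannot be told apart. Pfkl rose in MSM, and Ugp2, Tpi1, Pgm1, Gbe1, Gckr and Pfkm fell, of which Pgm1, Gbe1, Pfkm and 1 of 5 probe sets of Ugp2 changed direction with quantile normalization. In all, 13 of the 44 probe sets passed (29.5%), 2 higher and 11 lower, from 7 of 26 genes. Over all probe sets tested, 22.8% passed, 13.1% higher and 9.66% lower. The median difference was -0.689 residual SDs over the 44 probe sets and 0.533 over all probe sets. In 32 of the 44 (72.7%) the MSM males and the B6 males did not overlap, against 74.1% of all probe sets, and 29 of the differences (65.9%) were negative, against 40.0%. By role, 1 of 4 genes of uptake and phosphorylation, 3 of 10 of glycolysis and 3 of 6 of glycogen passed. None of the 2 genes of pyruvate use, the 3 of gluconeogenesis and the 1 of fructose did. A gene counted if any of its probe sets passed, and no such share was computed for all genes. At an unadjusted p below 0.05 in the limma fit were 16 of the 44 probe sets (36.4%), against 35.5% of all probe sets.

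**Figure D2:**
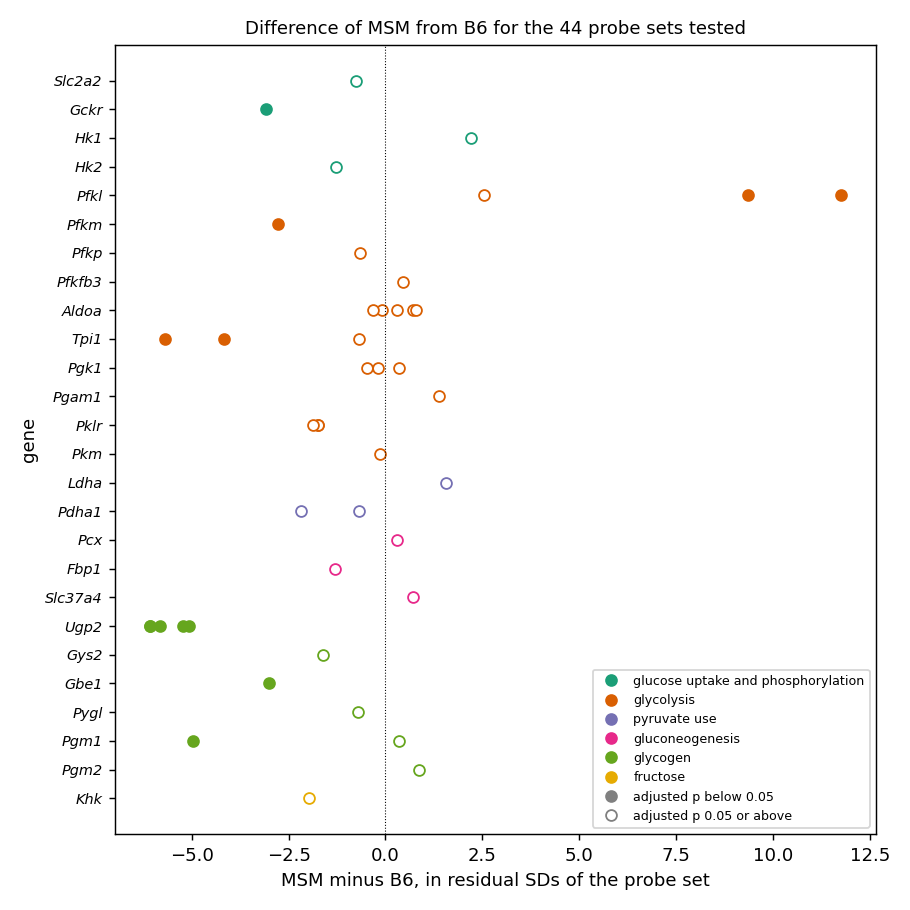
Difference of MSM from B6 for each of the 44 probe sets tested (horizontal axis, in residual SDs of the probe set), by gene (vertical axis, coloured by role). Filled points passed at an adjusted p below 0.05. Pfkl stands at the right with 11.8 and 9.35 residual SDs, and the 5 probe sets of Ugp2 at the left between -6.08 and -5.08.

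Pfkl had values of 14.6 and 13.8 units in the MSM males, against -0.444 and -0.00442 units in the B6 males (probe set 1439148_a_at). Every other male of the panel lay between -2.23 and 4.53 units, so the MSM males stood apart from all 58 others. The difference was 14.4 ± 1.22 units (SE, adjusted p = 1.05e-10). A second probe set, 1450269_a_at, gave 5.03 and 4.58 units in MSM, against -0.247 and 0.0261 units in B6, a difference of 4.92 ± 0.521 units (SE, adjusted p = 1.44e-08). The third, 1453541_at, had both MSM males above all 58 others, at 0.0246 and 0.0213 units, against 0.00568 and 0.000984 units in B6, and did not pass against B6 (adjusted p = 0.0853). Pfkl and Hk1 lie on chromosome 10, for which no consomic strain was analysed here, so whether the Pfkl difference travels with that chromosome was not tested. Among the consomic strains Chr9 had the highest mean of Pfkl, 2.74 units.

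Ugp2 fell in MSM at all 5 of its probe sets. At the brightest, 1451742_a_at, the MSM males had -1.63 and -1.78 units and the B6 males 0.638 and -0.0704 units, a difference of -1.99 ± 0.389 (SE, adjusted p = 0.000292). Both MSM males lay below the other 58 males, whose lowest value was -1.36 units. At 1434485_a_at they had -2.41 and -2.31 units, against 0.385 and -0.183 units in B6 (difference -2.46 ± 0.401, adjusted p = 2.61e-05). Adjusted p-values of the other 3 probe sets ran from 2.59e-05 to 0.000207.

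Tpi1 fell at 2 of its 3 probe sets. At 1452927_x_at the MSM males had -1.22 and -1.71 units, against -0.182 and -0.143 units in B6 (difference -1.30 ± 0.309, SE, adjusted p = 0.00236). At 1415918_a_at they had -5.01 and -5.44 units, against -0.706 and -0.185 units in B6 (difference -4.78 ± 0.833, adjusted p = 6.7e-05). The groups did not overlap at either, and without the second MSM male 1452927_x_at did not pass (adjusted p = 0.0631). The third probe set, 1435659_a_at, had -0.211 and -0.428 units in MSM, against -0.29 and 0.0104 units in B6, and the groups overlapped (adjusted p = 0.655).

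Pgm1 had -0.458 and -0.386 units in MSM, against 0.333 and 0.198 units in B6, at 1451149_at, and both MSM males lay below all 58 others. The difference was -0.687 ± 0.137 units (SE, adjusted p = 0.00038). The other probe set of Pgm1, 1437240_at, gave 0.133 and 0.0171 units in MSM, against 0.0998 and -0.0108 units in B6, with overlapping groups (adjusted p = 0.824).

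Gbe1 had -1.81 and -1.01 units in MSM, against 0.948 and 0.474 units in B6 (difference -2.12 ± 0.701, SE, adjusted p = 0.0268). Gckr had -0.0962 and -0.167 units in MSM, against 0.128 and 0.0395 units in B6 (difference -0.215 ± 0.0691, adjusted p = 0.0229). Pfkm had -0.0293 and -0.0199 units in MSM, against 0.0288 and 0.0201 units in B6 (difference -0.049 ± 0.0179, adjusted p = 0.0456). The groups did not overlap in these 3 genes, but the calls rested on single males. Gbe1 and Pfkm lost theirs without any 1 of the MSM and B6 males, with adjusted p from 0.0505 to 0.193 for Gbe1 and from 0.106 to 0.201 for Pfkm. Gckr lost it without the second MSM male (0.174) or the first B6 male (0.201). For Gckr, the SD between repeat arrays of a male, 0.0711 units, was as large as that between males of a strain, 0.0697 units.

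Quantile normalization of the deposited values put the median probe set of MSM 5.92 residual SDs above B6, in place of 0.533, and under it the differences of Pfkm (3.7 units), Pgm1 (0.0976), Gbe1 (0.803) and the Ugp2 probe set 1426461_at (1.43) were positive. Those of Gckr, Tpi1 1452927_x_at and Ugp2 1451742_a_at were 0. Both called probe sets of Pfkl, Tpi1 1415918_a_at and the other 3 of Ugp2 kept their direction, but these 3 no longer passed (adjusted p from 0.057 to 0.922). Of the 11 probe sets that fell, Tpi1 1415918_a_at alone fell and passed under both scalings. Quantile normalization keeps only the rank of a probe set in each array, so small deposited differences can become 0 or much larger. For example, the hepatocyte marker Fah (1417220_at) went from -0.096 to 8.16 units in MSM. A call kept or lost under this scaling therefore does not decide whether a deposited difference holds.

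Of the 19 genes that did not pass, several had wide intervals. Khk had -1.45 and -1.29 units in MSM, against 0.357 and -0.25 units in B6 (difference -1.43, 95% interval -2.89 to 0.0329). Pklr had -3.61 and -6.36 units in MSM, against 11.3 and 5.04 units in B6, without overlap (difference -13.2, 95% interval -28.4 to 2.11). Gys2 had -1.97 and 0.767 units in MSM, against 3.46 and 1.03 units in B6 (difference -2.84, 95% interval -6.4 to 0.711). For Pygl, values of 0.0405 and 0.0101 units in MSM stood against 0.0973 and 0.0688 units in B6 (difference -0.0578, 95% interval -0.223 to 0.108). Against the mean of the other 29 strains in place of B6, 15 of the 44 probe sets passed, from 8 genes. Pfkm no longer did, while Hk1 (adjusted p = 0.0172), Pgam1 (0.0467) and the third probe set of Pfkl (0.00206) did. The share of all probe sets that passed against this mean was not computed.

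A consomic strain shows whether such a difference travels with the chromosome that holds the gene. For 24 of the 26 genes the panel held at least 1 strain with that chromosome, or part of it, from MSM, which gave 66 tests. Strains were matched to genes by chromosome number alone. Whether the C or the T part holds the gene was not established, for Tpi1 as for the others. Some of these tests may therefore be on a B6 copy of the gene. Only Tpi1, on chromosome 6, passed against B6, in Chr6C. For 1415918_a_at the Chr6C males had -2.58 and -5.45 units, against -0.706 and -0.185 units in B6 (difference -3.57 ± 0.833, SE, adjusted p = 0.045), which is 74.7% of the difference of MSM. In Chr6T the values were -4.64 and -3.08 units (difference -3.41 ± 0.833, 71.4% of that of MSM), with an adjusted p of 0.0879. After quantile normalization both strains passed (-4.45 units, adjusted p = 1.72e-05, in Chr6C, and -3.87 units, adjusted p = 0.000267, in Chr6T). Both males of each strain lay below both B6 males. The call in Chr6C was lost without the second Chr6C male (adjusted p = 0.41) or either B6 male (0.284 and 0.369). Over all probe sets, 0.412% passed in Chr6C and 0.262% in Chr6T.

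The brighter Tpi1 probe set 1452927_x_at had -0.713 and -1.83 units in Chr6C and -1.47 and -1.05 units in Chr6T, against -0.182 and -0.143 units in B6, which is 85.5% and 84.3% of the difference of MSM. Neither passed against B6 (adjusted p = 0.148 for Chr6C and 0.203 for Chr6T). Against the mean of the strains that carry no part of chromosome 6 from MSM, both probe sets passed in both strains, with adjusted p-values of 4.05e-05 and 0.000108 for 1415918_a_at in Chr6C and Chr6T, and of 0.000941 and 0.00132 for 1452927_x_at.

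**Figure D3:**
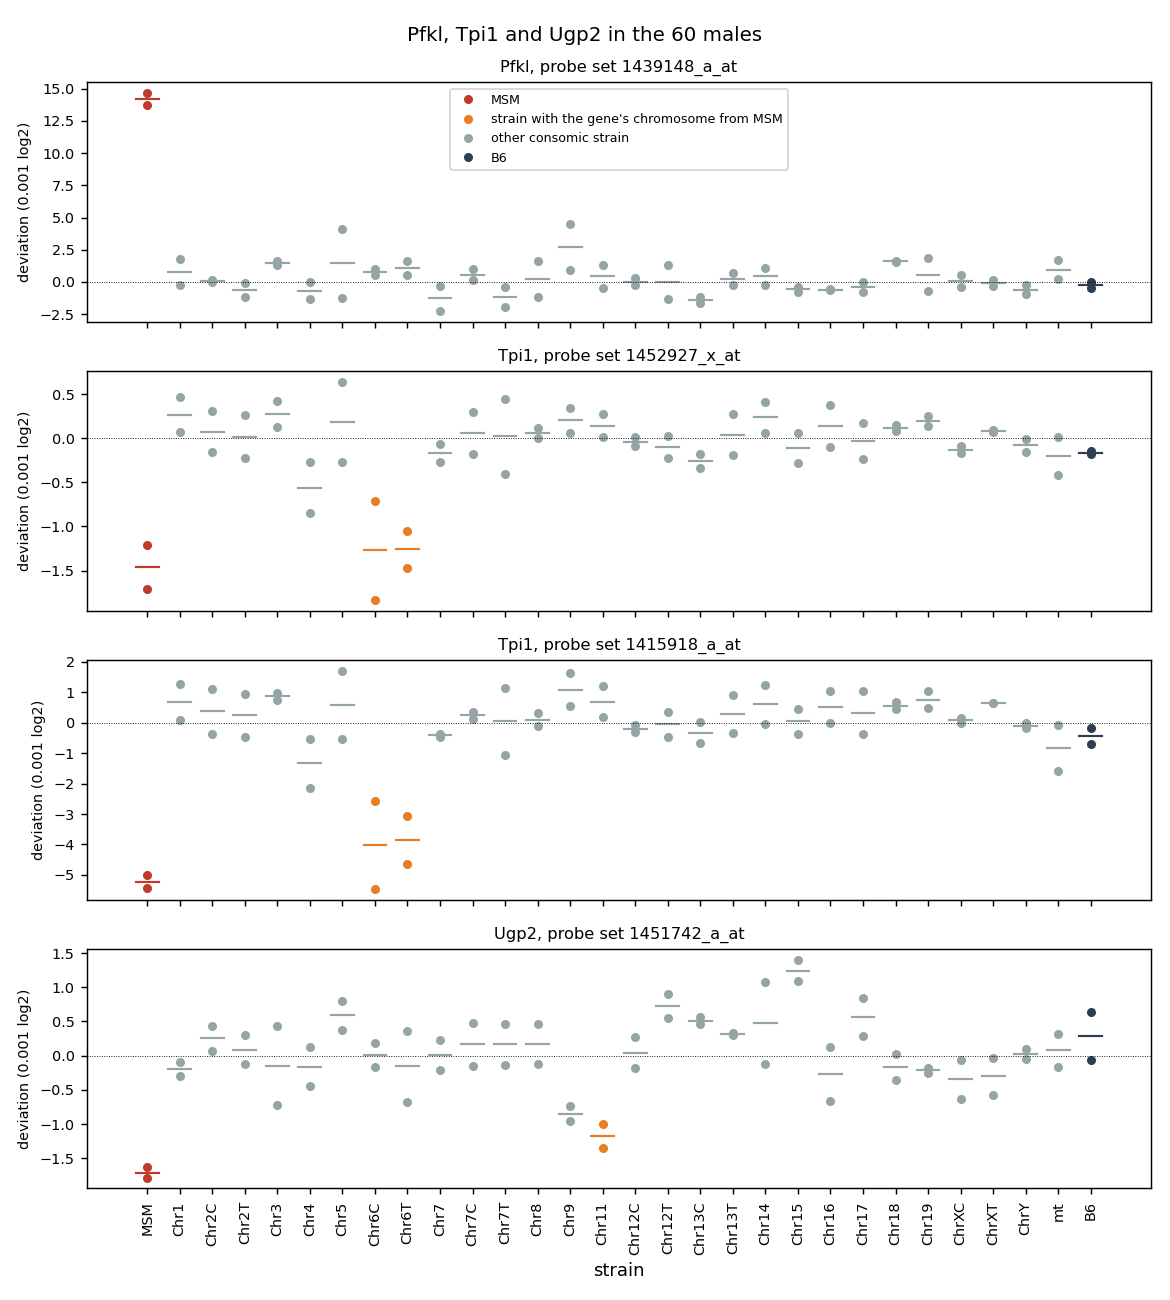
Values of all 60 males (points, units of 0.001 log2 from the median male) and strain means (lines) over the 30 strains for Pfkl, 2 probe sets of Tpi1 and Ugp2, with MSM at the left and B6 at the right. Strains that carry the chromosome of the gene from MSM, whole or in part, are orange. Pfkl is high in MSM alone among these strains, Tpi1 is low in MSM, Chr6C and Chr6T, and Ugp2 is lowest in MSM and next lowest in Chr11.

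Ugp2 lies on chromosome 11. Its brightest probe set had -0.999 and -1.36 units in the Chr11 males, against 0.638 and -0.0704 units in B6 (difference -1.46 ± 0.389, SE), which is 73.4% of the difference of MSM. Both Chr11 males lay below both B6 males, but the call missed the threshold (adjusted p = 0.0754), and after quantile normalization the difference was positive (2.28 units). Over all probe sets, 0.723% passed in Chr11. At 1434485_a_at the Chr11 males had -1.36 and -1.54 units, 63.1% of the difference of MSM (adjusted p = 0.0621), and after quantile normalization the difference was 0. Set against the strains without chromosome 11 of MSM, these 2 probe sets and 1434486_x_at passed in Chr11 (adjusted p = 0.00829, 0.00261 and 0.00369), while 1426461_at and 1426460_a_at, with 45.1% and 41% of the difference of MSM, did not (0.577 and 0.659).

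The other genes that differed between the parent strains did not pass in the strain of their own chromosome. Pgm1 had -0.207 and -0.193 units in Chr4, against 0.333 and 0.198 units in B6, or 67.7% of the difference of MSM (adjusted p = 0.186). Gbe1 had -1.16 and -0.671 units in Chr16, against 0.948 and 0.474 units in B6, or 76.6% (adjusted p = 0.915). In both genes the 2 groups did not overlap, but B6 was the highest strain for Pgm1 and among the higher ones for Gbe1, and neither passed against the mean of the strains without that chromosome (adjusted p = 0.476 and 1). Pfkm reached 66.2% of the difference of MSM in Chr15 (adjusted p = 0.904) and Gckr 20.3% in Chr5 (adjusted p = 0.812). In all, 24 of the 66 tests (36.4%) had an unadjusted p below 0.05, against 7.89% of the tests of all probe sets in the 28 consomic strains. The 7.89% covers genes on every chromosome, and the share of all probe sets in the strains of their own chromosome was not computed. The 66 tests share the B6 males and hold several probe sets of the same genes, so these shares are not like for like. As in MSM, a changed transcript level and a sequence difference at the probes cannot be told apart for a gene on the substituted chromosome. The probe sequences were not used here.

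In strains whose substituted chromosome does not hold the gene, 5 of 1166 tests passed against B6, or 0.429%, and 153 (13.1%) had an unadjusted p below 0.05. All 5 were lower than B6. They were Pdha1 at 1418560_at in Chr5, Chr6C, Chr6T and Chr7, and Pygl in Chr7. The other Pdha1 probe set, 1449137_at, was called in no strain. In the other 24 consomic strains limma called no member, with 130 of 1056 tests (12.3%) at an unadjusted p below 0.05, against 7.17% over all probe sets in these strains. All these tests share the B6 males.

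Pdha1 had -0.245 and -0.225 units in Chr5, -0.26 and -0.184 in Chr6C, -0.0892 and -0.48 in Chr6T and -0.00128 and -0.309 in Chr7, against 0.586 and 0.32 units in B6. The differences were -0.688 ± 0.16, -0.675 ± 0.16, -0.737 ± 0.16 and -0.608 ± 0.16 units (SE, adjusted p = 0.0251, 0.0488, 0.0288 and 0.0479). The 4 comparisons share the B6 males, and B6 had the highest mean of all 30 strains for both probe sets of Pdha1. Against the mean of the strains without the chromosome in question none of the 4 passed (adjusted p = 0.391, 0.759, 0.694 and 0.521). Without the first or the second B6 male all 4 calls were lost, and so they were without the second male of Chr5, Chr6C, Chr6T or Chr7, each in its own strain. In Chr5 and Chr6C the call was also lost without the first male (adjusted p = 0.0784 and 0.544). After quantile normalization none of the 4 passed (adjusted p from 0.356 to 0.503).

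Pygl had -0.169 and -0.304 units in Chr7, against 0.0973 and 0.0688 units in B6 (difference -0.32 ± 0.0811, SE, adjusted p = 0.0404), and passed also against the mean of the strains without chromosome 7 of MSM (adjusted p = 0.0382). The call was lost without the second Chr7 male (adjusted p = 0.32) or either B6 male (0.286 and 0.203), and after quantile normalization the difference was 0. Chr7 had the lowest mean of Pklr, Pcx, Slc37a4, Pygl and Pfkm. In the same strain Pdk4, a kinase that shuts off pyruvate dehydrogenase in fasting and named here after its value was seen, was 98.4 ± 24.6 units above B6 (SE, adjusted p = 0.0381). Chr7 was the consomic strain with the most calls, 1.32% of all probe sets. Chr7C and Chr7T carry parts of the same chromosome from MSM and were left out of the mean used above. Their means were 0.0897 and 0.0101 units for Pygl, which was called in neither, and -0.122 and 10.5 units for Pklr. For Pcx they were 0.00805 and -0.216 units, for Slc37a4 -0.717 and 0.323, and for Pfkm 0.0226 and -0.0196.

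Against the second kind of reference 8 of the 1166 tests passed: Pygl in Chr7, given above, and 7 on Ugp2, Gys2 and Pgam1. The share of all probe sets that passed against this reference was not computed. Ugp2 was higher in Chr15 at 1451742_a_at, with 1.09 and 1.4 units against 0.638 and -0.0704 in B6, and at 1434485_a_at (adjusted p = 0.018 and 0.0154). Both Chr15 males had more than any other male of the panel at these probe sets. Gys2, the next enzyme of the route, was likewise highest in Chr15, with 4.46 and 5.71 units against 3.46 and 1.03 in B6, and no other male exceeded 3.83 units (adjusted p = 0.0317). Ugp2 was lower in Chr9 at 3 probe sets, with -0.956 and -0.735 units at the brightest (adjusted p = 0.0487), against 0.638 and -0.0704 in B6. Pgam1 was higher in Chr14, with 0.138 and 0.16 units against 0.0236 and 0.0361 in B6 (adjusted p = 0.0403), and all other males were at or below 0.119 units.

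The counts against B6 stand beside low shares of calls over all probe sets. Besides the strains given above, the share called against B6 was 0.945% in Chr9, 0.878% in Chr5, 0.501% in Chr3, 0.501% in Chr4, 0.461% in Chr18, 0.395% in Chr1 and 0.381% in Chr7C. It was 0.346% in Chr19, 0.333% in Chr17, 0.324% in Chr15, 0.302% in Chr8, 0.27% in Chr14, 0.248% in mt and 0.239% in Chr7T. It was 0.204% in Chr2T, 0.191% in Chr16, 0.142% in Chr2C, 0.0976% in Chr12T, 0.0887% in Chr13C, 0.0754% in Chr12C, 0.0665% in Chr13T, 0.0621% in ChrXC and 0.0177% in ChrXT. In ChrY it was 0%, with 945 of the 22551 probe sets and 4 of the 44 described here at an unadjusted p below 0.05.

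The genes were then compared with each other over the 30 strain means, through their brightest probe sets, in 325 pairs. By permutation of the strains (100000 resamples, two-sided, adjusted over all pairs) 11 pairs passed for Spearman's rho, all positive. Slc2a2, Khk, Gbe1, Pygl and Pklr, which belong to glucose uptake, fructose, glycogen and glycolysis and lie on 4 chromosomes, made up 8 of them. The strongest pair was Gbe1 and Khk, with r = 0.79 (p = 1e-05, adjusted 0.00108) and rho = 0.73 (p = 2e-05, adjusted 0.00217), and r was 0.75 without the 2 strains farthest from the median of Gbe1. Slc2a2 and Gbe1 had r = 0.74 (p = 1e-05, adjusted 0.00108) and rho = 0.72 (p = 2e-05, adjusted 0.00217), with r = 0.69 without the 2 farthest strains. Slc2a2 and Khk had r = 0.74 (p = 2e-05, adjusted 0.0013) and rho = 0.70 (p = 2e-05, adjusted 0.00217), with r = 0.69 without them. The smallest p these permutations can give is 1e-05.

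Slc2a2 and Pygl had r = 0.75 (p = 1e-05, adjusted 0.00108) and rho = 0.67 (p = 6e-05, adjusted 0.0039), with r = 0.72 without the 2 farthest strains. Pklr and Khk had r = 0.67 (p = 4e-05, adjusted 0.00217) and rho = 0.63 (p = 0.00027, adjusted 0.0146), with r = 0.56 without them. Apart from this group, the consecutive glycogen enzymes Ugp2 and Gys2 had r = 0.64 (p = 0.0004, adjusted 0.0162) and rho = 0.68 (p = 6e-05, adjusted 0.0039), with r = 0.77 without the 2 farthest strains, MSM and Chr11. All strains but MSM share the B6 background, and the arrays share their normalization. Without MSM 15 pairs passed, and after quantile normalization 3 of the 253 pairs that still had values, the 6 pairs named here not among them (adjusted p of rho from 0.106 to 0.969).

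The same genes were also compared within strains. The difference between the 2 males of a strain, which holds no strain effect, was compared over the 30 strains in the same way, and 34 pairs passed, 32 of them positive. Slc2a2 and Khk then had r = 0.85 and rho = 0.86 (p = 1e-05 for both, adjusted 0.00065 for rho), and r = 0.85 without the 2 farthest strains. Slc2a2 and Gbe1 had r = 0.86 and rho = 0.83 (p = 1e-05 for both, adjusted 0.00065 for rho), and r = 0.82 without them. Slc2a2 and Pklr, at rho = 0.57 over strain means, had r = 0.88 and rho = 0.81 (p = 1e-05 for both, adjusted 0.00065 for rho).

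Single strains, chosen here after their values were seen, show what this means. In Chr13C the males had -7.24 and -0.019 units of Slc2a2, -1.9 and -0.224 units of Khk, -1.63 and -0.131 units of Gbe1, and -17.9 and 2.44 units of Pklr. The first male of that strain was low in all 4 genes and the second near the median of the panel. In Chr17 it was the second male, with 0.335 and -6.07 units of Slc2a2, -0.296 and -1.76 units of Khk, -0.207 and -1.12 units of Gbe1, and -1.57 and -16.1 units of Pklr. Both B6 males had positive values of Slc2a2 (2.35 and 1.2 units), Gbe1 and Pklr, but not of Khk (0.357 and -0.25 units). MSM was low in Khk and Gbe1 and near the median in Slc2a2 (0.17 and -0.196 units), and had -3.61 and -6.36 units of Pklr.

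**Figure D4:**
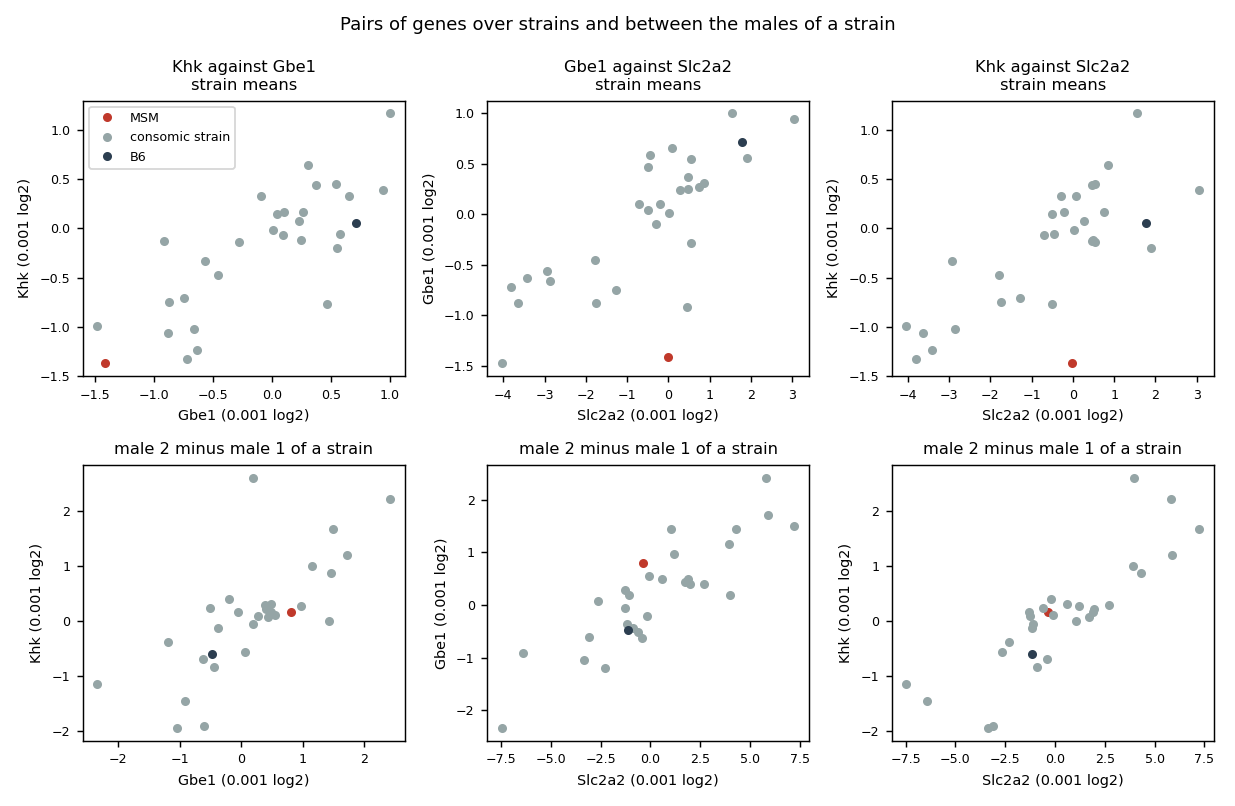
The 3 pairs with the smallest adjusted p (columns): Khk against Gbe1, Gbe1 against Slc2a2 and Khk against Slc2a2. The upper row shows the 30 strain means and the lower row the difference between the 2 males of each strain, all in units of 0.001 log2. The points run from lower left to upper right in all 6 panels (r from 0.73 to 0.86), and in the upper middle and right panels MSM lies near 0 on Slc2a2 and low on the other gene.

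Since these genes varied together, the stretches around their start sites are shown, from RefSeq on GRCm38.p6, from 250 bases before to 50 bases after the start. Pklr has 2 annotated start sites, and the second one, Khk and Slc2a2 are given. Capitals mark matches, on either strand, to CACGNG. The carbohydrate response element, known from the liver pyruvate kinase promoter, pairs 2 such stretches, CACGNG and CNCGTG, with 5 bases between them.
Pklr second start site (chr3:89136373-89136672, plus strand): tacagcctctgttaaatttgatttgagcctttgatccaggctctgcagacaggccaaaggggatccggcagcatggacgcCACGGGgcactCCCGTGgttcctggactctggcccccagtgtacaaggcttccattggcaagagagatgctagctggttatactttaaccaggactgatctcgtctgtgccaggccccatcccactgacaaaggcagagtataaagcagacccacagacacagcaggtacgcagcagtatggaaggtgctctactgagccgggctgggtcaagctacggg
Khk (chr5:30921309-30921608, plus strand): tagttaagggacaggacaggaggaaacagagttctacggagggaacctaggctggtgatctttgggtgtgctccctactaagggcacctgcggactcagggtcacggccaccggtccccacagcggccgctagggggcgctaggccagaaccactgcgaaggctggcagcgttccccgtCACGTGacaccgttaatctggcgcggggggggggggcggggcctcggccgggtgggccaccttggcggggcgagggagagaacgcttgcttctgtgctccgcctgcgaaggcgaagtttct
Slc2a2 (chr3:28697653-28697952, plus strand): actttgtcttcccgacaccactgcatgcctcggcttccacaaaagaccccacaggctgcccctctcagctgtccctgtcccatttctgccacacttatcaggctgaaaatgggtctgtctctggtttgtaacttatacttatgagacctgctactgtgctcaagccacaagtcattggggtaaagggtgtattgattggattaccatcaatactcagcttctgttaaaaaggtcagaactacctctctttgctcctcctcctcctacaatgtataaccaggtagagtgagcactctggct

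The Pklr window held the paired form cacggggcactcccgtg, starting at position -170 from the start site. This form is known from the Pklr promoter, so the match there was given in advance and is not a result of these data. In all, 15 of 32851 promoter windows of this length, the Pklr window included, hold this form (0.0457%). The window of the first Pklr start site held no match to CACGNG or to the paired form. The Khk window held CACGTG, which is its own reverse complement and 1 of the sequences that CACGNG covers, at position -71. CACGTG occurs in 7.15% of all windows and CACGNG in 27.5%. The windows of Gbe1 and Pygl held 1 match to CACGNG each, and that of Slc2a2 none. None of the windows of Khk, Gbe1, Pygl and Slc2a2 held the paired form. A match is a string of letters in this window and does not show that the site is bound.

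Other genes of the same routes, on a list of neighbouring enzymes, moved in both directions in MSM: of 102 probe sets from 63 genes, 13 were higher and 13 lower, from 19 genes, with a median of -0.203 residual SDs. The share called was 25.5%, near the 22.8% of all probe sets tested. Gpd2, the mitochondrial glycerol phosphate dehydrogenase, was 8.91 ± 0.795 units higher (adjusted p = 3.72e-10). Slc2a9, a transporter of urate, was 16.5 ± 1.7 units higher at 1426568_at (adjusted p = 8.53e-09) but differed by -1.56 ± 0.322 units at 1440873_at (adjusted p = 0.00057, and 0.0705 after quantile normalization). Dlat, another subunit of pyruvate dehydrogenase, was at -1.62 ± 0.214 units (adjusted p = 9.38e-07), and its sign turned with quantile normalization (1.3 units). Tkfc, which acts after Khk in fructose use, differed by -14.5 ± 2.79 units (adjusted p = 0.000248), Pdk1, a pyruvate dehydrogenase kinase, by -33.9 ± 6.93 (0.000497), and Stbd1, a glycogen-binding protein, by -19.2 ± 4.02 (0.000664).

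In strains with the chromosome of the gene, or part of it, 10 of 137 tests on this list passed (7.3%), 2 higher and 8 lower, from 8 of 62 genes. The share of all probe sets in the strains of their own chromosome was not computed. Slc2a9 was 17.7 ± 1.7 units higher in Chr5 at 1426568_at (adjusted p = 2.98e-08) but at -1.65 ± 0.322 at 1440873_at (0.00565), and Gpd2 4.3 ± 0.795 units higher in Chr2C (0.00775). Chr11 held 4 of the genes that fell: Aldoc, a brain aldolase, at -9.55 ± 1.42 units (0.000108), Gaa, the lysosomal glucosidase of glycogen, at -0.14 ± 0.026 (0.00255), Pdk2 at -1.74 ± 0.327 (0.00283) and Mdh1, malate dehydrogenase, at -0.0885 ± 0.0196 (0.0178). Under quantile normalization the Chr11 difference of this Gaa probe set turned positive (0.421 units), that of Mdh1 was 0, and Pdk2 no longer passed (-0.942 units, adjusted p = 0.529). Tkfc in Chr19 and Pck1, the first committed enzyme of gluconeogenesis, in Chr2T also passed, at -12.5 ± 2.79 (0.0386) and -4.77 ± 1.06 units (0.0474), but neither passed after quantile normalization (-12 units with adjusted p = 0.0606, and -1.78 units with adjusted p = 1). In strains without the chromosome of the gene, 7 of 2719 tests on the list passed.

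A list of regulators of liver glucose metabolism had 16 of 77 probe sets called in MSM, 9 higher and 7 lower, from 13 of 37 genes. The share called was 20.8%, against 22.8% of all probe sets tested. On their own chromosomes 3 of 104 tests passed (2.88%), all lower, named here after their values were seen, and again no such share was computed for all probe sets. Prkaa2, a catalytic subunit of AMP kinase, was at -14 ± 2.92 units in Chr4 (adjusted p = 0.0133) and at -18.7 ± 2.92 in MSM (1.48e-05). Hif1a in Chr12T was at -0.404 ± 0.0809 (0.0245) and Hnf4a in Chr2T at -1.45 ± 0.313 (0.0322). After quantile normalization these 2 were at -0.106 and -0.505 units and no longer passed (adjusted p = 1 for both).

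Markers of other liver cells were set beside the MSM result. All 14 Kupffer cell probe sets had negative differences and 4 passed, with a median of -2.05 residual SDs. Over all probe sets tested, 22.8% passed. After quantile normalization Clec4f (adjusted p = 0.101) and Csf1r 1419873_s_at (0.128) no longer passed, while Csf1r 1419872_at and Vsig4 did. The mean level of the Kupffer cell probe sets was 8.679 and 8.678 in the MSM males, against 8.688 and 8.688 in the B6 males. Deviations are compressed differently in each probe set, so a few of them can set this mean. Of the other lists, 2 of 19 hepatocyte (2 lower) and 2 of 10 endothelial probe sets (1 higher, 1 lower) passed. In the stellate and fibroblast list 3 of 11 passed (2 higher, 1 lower), and in the erythroid list 3 of 3 (2 higher, 1 lower). In the cholangiocyte and pancreas list 1 of 2 passed (higher). The single lymphocyte and neutrophil probe set, 3 muscle probe sets and the single adipocyte probe set did not. Values on this scale have no 0, so no marker could be called absent. Their part in the MSM differences was not tested.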

How the data were processed

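Liver RNA of 10-week-old male mice of 30 strains was measured on 120 arrays, 2 per male and 2 males per strain. Values are log2 values as deposited by the authors. How they summarised and normalized the probes is not stated in the labels used here. The 2 arrays of a male were averaged. Labels hold a middle number that is not explained, and arrays that share it were treated as 1 male. The design text says that livers of different males were tested independently, but whether males shared a litter is not given, and p-values measure only the spread between these males.

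Probe sets were named through the platform annotation: of 45037, 34945 had 1 gene symbol, 932 several and 9160 none, and only those with 1 symbol were named. A probe set was tested if 2 or more of the 60 males lay above the median of the whole table (22551 probe sets). limma 3.58.1 in R 4.3.3 fitted 1 mean per strain over all 30 strains, with 29 contrasts to B6 and an F test. P-values were adjusted by Benjamini-Hochberg over all probe sets tested, for each contrast, and those below 0.05 were called. A second reference was the mean of the strains that do not carry the chromosome in question from MSM. The fit was checked on simulated data.

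The genes, the lists of other enzymes, regulators and cell markers, and the tests were chosen with earlier results of these data known. All genes are given by counts. Values of each male are given for genes called in MSM, called in the strain of their own chromosome, or among the 10 smallest adjusted p of calls elsewhere. Of the related pairs, the 6 with the smallest adjusted p are given, and of the other enzymes up to 6 per comparison. For differences between the 2 males of a strain, the order of the males is that of the samples and has no meaning. Alternatives were no filter, 1 probe set per gene, quantile normalization, all 120 arrays with the male as a random block, a trended robust prior, the second reference, 2 strains alone and each male left out. For the F test, leaving out males was added after seeing the data, and so were all alternatives for the pairs.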

Additional observations from a re-analysis of the deposited data

How the results depend on the processing

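Of the 44 probe sets, 10 varied over the strains, and the count was 4 with 1 probe set per gene (26 tested), 16 after quantile normalization, 25 with all 120 arrays and the male as a block, and 7 to 13 with a male left out. For MSM against B6, 13 were called, against 7 with 1 probe set per gene, 21 after quantile normalization, 7 with the 2 strains alone, and 9 to 11 with a male left out. For the strains with the chromosome of the gene the count was 1, against 0 without the filter, 0 with 1 probe set per gene, 0 with 2 strains alone, 4 after quantile normalization, 8 with the block and 7 with the second reference. It ran from 0 to 6 with a male left out: 0 without either B6 male or the second Chr6C male, 2 without the first Chr6C male, 3 without the second Chr9 male and 6 without the first Chr7 male. Elsewhere 5 were called, against 2 without the filter, 2 after quantile normalization, 24 with the block, 3 with the trended robust prior, 8 with the second reference and 0 with 2 strains alone. That count ran from 0 to 18 with a male left out: 0 without either B6 male, 3 without the second Chr7 male and 18 without the second Chr9 male. The limma counts at an unadjusted p below 0.05 were 24 of 66 tests on the own chromosome and 153 of 1166 elsewhere. Of 325 pairs, 11 passed, against 34 for differences between males and 3 after quantile normalization. Quantile normalization turned 5 differences from B6 positive: Ugp2 1451742_a_at in Chr11 (2.28 units), and in MSM Pfkm (3.7), Ugp2 1426461_at (1.43), Gbe1 (0.803) and Pgm1 1451149_at (0.0976). Beyond counting fewer probe sets or males, the cause was not tested. Of the other single differences, 111 kept direction and call across the settings, 36 lost the call and 13 gained it; with a male left out 68 kept both, 31 lost the call and 1 gained it. No paired analysis was possible because the males of a strain are numbered here only to name them, and the last number of a label counts arrays of 1 male. The 2 males per strain limit what the tests can call, and dim probe sets were not tested.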
